A study of Mus musculus with 10 samples.

Results

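The tumour necrosis factor (TNF) superfamily comprises trimeric ligands and the cell-surface receptors they bind. Its members here were every mouse gene whose symbol begins with Tnfsf (ligands) or Tnfrsf (receptors), together with Tnf, Lta, Ltb, Fasl, Fas, Cd27, Cd40, Cd40lg, Cd70, Ltbr, Ngfr, Eda, Edar and Eda2r. The rule found 47 symbols in the GENCODE M21 mouse annotation and 46 of them among the 28987 gene IDs of the data, and Tnfsf12 is not analysed here. These 46 genes comprised 18 ligands, 27 receptors and Tnfsf13os, an antisense gene that the symbol rule takes in. RNA was sequenced from cultures labelled primary white adipocytes, in which cells digested from the inguinal fat pads of C57BL/6 males aged 6 to 8 weeks were grown to confluence. Per the labels, the 5 groups of 2 libraries were treated for 24 h. They received recombinant BAFF at 500 ng/ml, recombinant APRIL at 500 ng/ml, lipopolysaccharide (LPS) at 100 ng/ml, norepinephrine at 1 mM, or saline. BAFF and APRIL are themselves ligands of this family, encoded by Tnfsf13b and Tnfsf13. No genetic change is named in any group, and whether the libraries within a group stem from different mice or dishes is not given, so each p-value measures only the spread between these libraries.

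Receptors of the family signal when a ligand clusters them. Some carry a cytoplasmic death domain that can recruit caspases, whereas most recruit TRAF adaptors that activate the NF-kB transcription factors. Decoy receptors bind a ligand without passing on a signal. In fat, TNF is best known as a macrophage product that impairs insulin action and lipid storage in adipocytes, and LPS, a bacterial cell-wall component sensed by Toll-like receptors, is a classical inducer of TNF in macrophages.

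Levels are in TPM, a length-corrected share of each library's transcripts, so that genes can be set side by side. The libraries summed to between 953553 and 964726 TPM, and since the files hold no counts, sequencing depth is unknown. Adipocyte markers summed to between 2120 and 13309 TPM over the 10 libraries and fibroblast markers to between 1656 and 8378 TPM, and the leptin gene Lep did not reach 1 TPM in any library. All 8 macrophage markers were at 1 TPM or more in every library, with sums of 296 to 1575 TPM. B-cell markers summed to at most 7.76 TPM, T- and NK-cell markers to at most 1.72 TPM and dendritic-cell markers to at most 1.11 TPM. The 2 libraries labelled APRIL stood apart. Their correlation with the other 8 libraries was 0.850 to 0.886 across genes, against 0.948 to 0.991 among those 8, and their Y-linked genes summed to 0.489 and 0.775 TPM, against 93.8 to 123 TPM in the others, although every library is labelled male. The fits were therefore run with and without the libraries labelled APRIL.

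The family was dominated by a pair of receptors. Tnfrsf1a, the main receptor for soluble TNF, and Ltbr, the receptor for membrane-bound lymphotoxin and LIGHT, together made up 68.8 to 85.1% of the summed family level, which lay between 849 and 1444 TPM. The Tnfrsf1a level was 512 and 537 TPM with BAFF, 636 and 539 in the libraries labelled APRIL, 390.3 and 413 with LPS, 515 and 497 with norepinephrine, and 531 and 482 with saline. Both LPS libraries were lower than every other library. The Ltbr level was 298 and 293 TPM with BAFF, 471 and 422 in the libraries labelled APRIL, 194 and 250.2 with LPS, 310.5 and 306 with norepinephrine, and 221 and 304 with saline. Its highest values were those of the libraries labelled APRIL, and the LPS and saline libraries overlapped. Tnfrsf1a and Ltbr lie close together on chromosome 6 (chr6:125349362-125362484 and chr6:125306571-125313885, mm10), with Cd27 on the same stretch at chr6:125232622-125237010.

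Detection was broader for receptors than for ligands. Of the 46 members, 16 were at 1 TPM or more in all 10 libraries, 30 in at least 1 library and 16 in none. The level required for testing, 2 or more libraries at or above 1 TPM, was met by 29 members: 7 of 18 ligands, 21 of 27 receptors and Tnfsf13os. Thresholds of 0.5 and 2 TPM gave 30 and 23 members. Of the 29, 2 members, Tnfrsf4 (OX40) and Cd27, reached 1 TPM in the libraries of 1 group only, Tnfrsf4 in those labelled APRIL and Cd27 in those with norepinephrine, so neither counts as support for a difference there. The summed ligand level was 19.4 to 40.0 TPM, and each library held 22 to 27 members at 1 TPM or more.

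**Figure D1:**
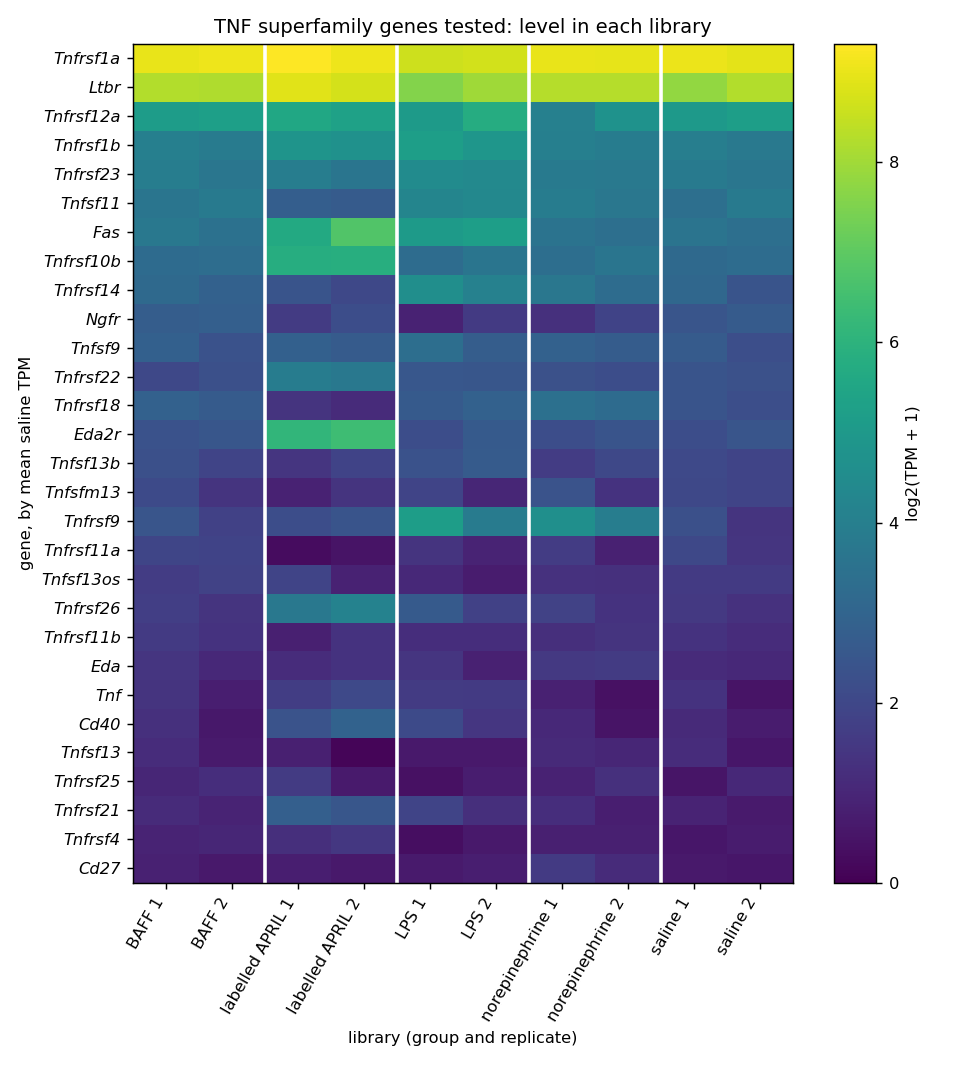
Level of the 29 tested TNF superfamily genes in each of the 10 libraries, as log2(TPM + 1) by colour, with genes in order of mean saline level and the 2 libraries of each group side by side. Tnfrsf1a and Ltbr are the brightest rows in every library, Fas, Tnfrsf10b, Eda2r and Tnfrsf26 are brighter in the libraries labelled APRIL than in saline, and Tnfrsf9 is brighter with LPS and norepinephrine than with saline.

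Averaged over all libraries, the most abundant ligand gene was Tnfsf11, which encodes RANKL, the osteoclast-inducing cytokine. Its level was 11.3 and 12.9 TPM with BAFF, 5.93 and 5.35 in the libraries labelled APRIL, 18.1 and 19.6 with LPS, 14.2 and 11.9 with norepinephrine, and 9.45 and 13.4 with saline. Both LPS libraries lay above all others and both libraries labelled APRIL lay below all others. Tnfsf9 encodes the ligand of the co-stimulatory receptor CD137, and its level was 6.26 and 4.06 TPM with BAFF, 6.29 and 5.41 in the libraries labelled APRIL, 9.44 and 5.70 with LPS, 6.36 and 5.52 with norepinephrine, and 5.33 and 3.73 with saline. The LPS libraries were above both saline libraries but overlapped the other treatments. In each library labelled APRIL, Tnfsf9 was slightly above Tnfsf11. About 12.9% of the 31-base words in the Tnfsf9 transcripts also occur in those of the gene model Gm11110, so its level is less certain.

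Tnf itself was low in every group. Its level was 1.61 and 0.705 TPM with BAFF, 2.22 and 3.11 in the libraries labelled APRIL, 2.10 and 1.96 with LPS, 0.818 and 0.329 with norepinephrine, and 1.57 and 0.423 with saline. The saline libraries spanned 0.423 to 1.57 TPM, and both LPS libraries were above them at 1.96 to 2.10 TPM, as were both libraries labelled APRIL. With LPS the difference from saline was 0.66 ± 0.33 (log2, SE), which did not pass the test. Eda, encoding the ectodysplasin that directs hair and gland development, was at 0.805 to 2.07 TPM over the 10 libraries. The 11 ligand genes that reached 1 TPM in no library included Tnfsf8 (CD30 ligand), Tnfsf4 (OX40 ligand), Tnfsf10 (TRAIL), Tnfsf14 (LIGHT), Tnfsf15 (TL1A), Tnfsf18 (GITR ligand), Lta and Ltb (lymphotoxins), Fasl and Cd70. The highest value among them was 0.586 TPM, for Ltb, and Cd40lg, the CD40 ligand of activated T cells, was listed at 0 TPM in all 10 libraries. Several receptors were thus measured well above 1 TPM while the gene of their ligand was not, such as Fas without Fasl and Tnfrsf10b without Tnfsf10.

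The 2 ligands given as treatments had genes at low but unequal levels. Tnfsf13b, the BAFF gene (ENSMUSG00000031497, chr8:10006467-10039072, plus strand, mm10), was at 3.88 and 2.72 TPM with BAFF, 1.68 and 2.65 in the libraries labelled APRIL, 4.10 and 5.44 with LPS, 2.16 and 3.02 with norepinephrine, and 3.20 and 2.73 with saline. All 10 libraries were above 1 TPM, the highest being an LPS library. Tnfsf13, the APRIL gene (ENSMUSG00000089669, chr11:69682846-69685784, minus strand), was at 1.27 and 0.591 TPM with BAFF, 0.771 and 0.0953 in the libraries labelled APRIL, 0.573 and 0.544 with LPS, 1.15 and 0.986 with norepinephrine, and 1.25 and 0.484 with saline. The 2 saline libraries alone spanned 0.484 to 1.25 TPM, a range that overlapped every other group. Of its 31-base words 58.4% are shared with Tnfsfm13, a gene model that reads through from Tnfsf12 into Tnfsf13, and the antisense gene Tnfsf13os overlaps it. Levels of these 3 genes cannot be separated with confidence, and Tnfsfm13 was at 0.845 to 4.25 TPM and Tnfsf13os at 0.629 to 2.75 TPM.

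Neither ligand gene differed from saline past an adjusted p of 0.05 in any comparison. The Tnfsf13b difference was 0.11 ± 0.23 (log2, SE) with BAFF (95% interval -0.43 to 0.64), and -0.34 ± 0.23 in the libraries labelled APRIL. It was 0.53 ± 0.23 with LPS (95% interval -0.00056 to 1.07, adjusted p = 0.304) and -0.15 ± 0.23 with norepinephrine. For Tnfsf13 the difference was 0.06 ± 0.31 with BAFF (95% interval -0.66 to 0.77) and -0.39 ± 0.31 in the libraries labelled APRIL. It was -0.23 ± 0.31 with LPS, whereas norepinephrine gave 0.18 ± 0.31. These intervals do not show the levels to be equal, and the signs of the Tnfsf13 difference with BAFF and of several others turned when 1 library was left out.

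The receptors of BAFF and APRIL were near or at 0. Tnfrsf13b, encoding TACI, which binds both ligands on B cells, was at 0.587 and 0.322 TPM with BAFF, 0 and 0.464 in the libraries labelled APRIL, 2.31 and 0.224 with LPS, 0.385 and 0.139 with norepinephrine, and 0.339 and 0.212 with saline. The single value above 1 TPM was LPS replicate 1, and the other LPS library lay within the saline range. Tnfrsf13c, the BAFF receptor gene, was at 0.177 and 0.0973 TPM with BAFF, 0.133 and 0.109 in the libraries labelled APRIL, 0.0630 and 0 with LPS, 0.0891 and 0.146 with norepinephrine, and 0.0906 and 0.105 with saline. Tnfrsf17, encoding BCMA, a plasma-cell receptor for both ligands, was listed at 0 TPM in 7 of 10 libraries and reached 0.503 TPM in 1 library labelled APRIL. None of the 3 passed the level required for testing. Of the B-cell markers, Ms4a1 (CD20) was at 0 TPM in all libraries. Ighm, the heavy chain of IgM, and Cd79a were higher, with Ighm at 5.73 and 5.09 TPM in the libraries labelled APRIL, against 1.85 and 2.09 TPM with saline. The B-cell sum of the libraries labelled APRIL was 6.32 and 7.76 TPM, whereas the other 8 libraries reached at most 2.67 TPM.

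**Figure D2:**
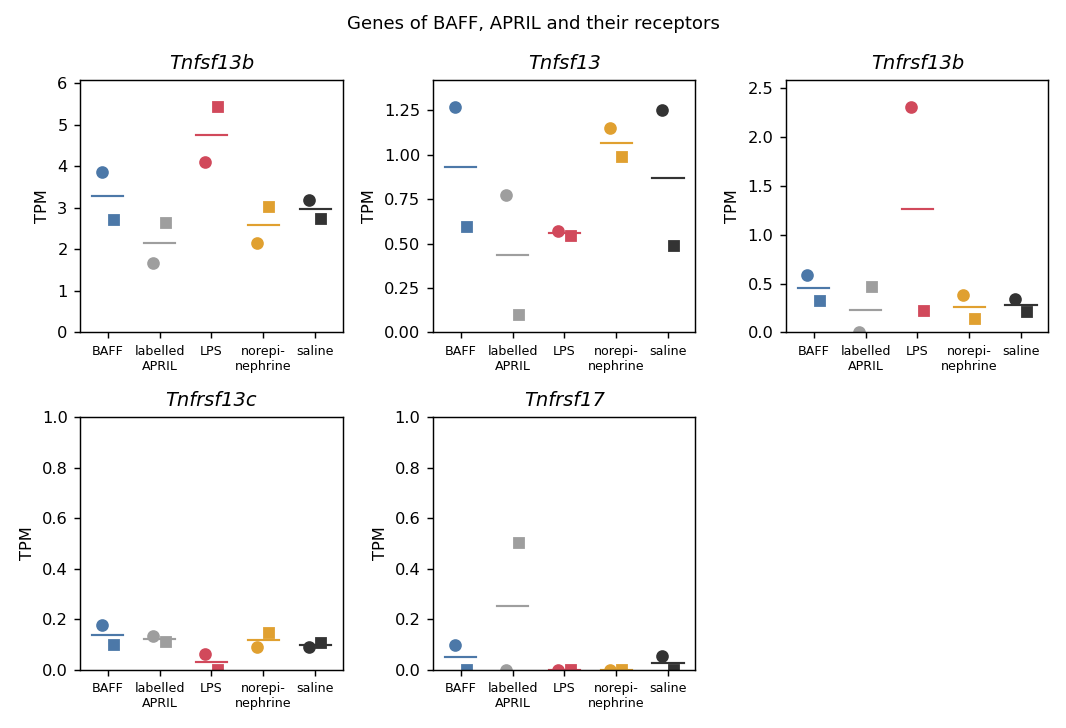
TPM of the genes of BAFF (Tnfsf13b), APRIL (Tnfsf13) and their receptors in each library, with circles for replicate 1, squares for replicate 2 and a line at the mean of each group. Tnfsf13b is above 1 TPM in all 10 libraries, whereas Tnfrsf13c and Tnfrsf17 stay below 1 TPM and Tnfrsf13b exceeds it in LPS replicate 1 alone.

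With BAFF, 0 of the 29 tested members differed from saline by limma at an adjusted p under 0.05, against 0.0141% of all 14166 tested genes. At an unadjusted p under 0.05 there was 1 member, where 2.84% of all genes were, namely Tnfrsf18 (GITR, a co-stimulatory receptor of T cells), which was at 6.43 and 5.43 TPM with BAFF, against 4.35 and 3.75 TPM with saline. Its difference was 0.45 ± 0.16 (log2, SE; adjusted p = 0.996). Both BAFF libraries lay above both saline libraries for 5 members, where 40.4% of all genes did so, and below them for 1, where 3.76% did so. The median difference over the members was 0.13, beside 0.11 over all tested genes. Median-ratio scaling moved the all-gene median by -0.11 with BAFF and by -0.10 in the libraries labelled APRIL.

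With LPS, 5 receptor genes rose. Relative to saline, 5 of the 29 members were higher, where 2.87% of all tested genes were, and 0 were lower, where 0.932% were. At an unadjusted p under 0.05, 10 members were higher, where 9.67% of all tested genes were, and 2 lower, where 6.81% were. The 5 were Tnfrsf1b, Tnfrsf9, Tnfrsf14, Fas and Tnfrsf23. Leaving out saline replicate 2 turned the count of 5 into 0, and leaving out saline replicate 1 or either BAFF library left 2. It was 1 when LPS replicate 1 was dropped and 3 when LPS replicate 2 was. With no filter on low values, Tnfrsf1b alone passed. The median difference over the members was 0.22 on the log2 scale, beside -0.01 over all tested genes. In the fit without the libraries labelled APRIL, 5 of 28 members were higher, where 4.55% of genes were, and 1 was lower, where 2.34% were.

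Tnfrsf1b encodes the TNF receptor that lacks a death domain (ENSMUSG00000028599, chr4:145213463-145246870, minus strand, mm10). Its level was 15.2 and 13.6 TPM with BAFF, 27.2 and 25.0 in the libraries labelled APRIL, 36.0 and 28.4 with LPS, 15.1 and 14.0 with norepinephrine, and 14.6 and 12.8 with saline. The LPS libraries did not overlap the BAFF, norepinephrine or saline libraries. It averaged 32.2 ± 5.42 TPM with LPS and 13.7 ± 1.33 TPM with saline (SD, n = 2 each), a difference of 1.17 ± 0.14 (log2, SE; adjusted p = 0.00526). The call was lost when saline replicate 2 was left out (adjusted p = 0.0630). The other TNF receptor gene, Tnfrsf1a, had the opposite sign at 390.3 and 413 TPM with LPS, against 531 and 482 TPM with saline, a difference of -0.33 ± 0.11 that did not pass (adjusted p = 0.182).

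Tnfrsf9 encodes CD137, an activation-induced co-stimulatory receptor (ENSMUSG00000028965, chr4:150914562-150946102, plus strand). Its level was 4.47 and 2.45 TPM with BAFF, 3.57 and 4.32 in the libraries labelled APRIL, 35.7 and 13.8 with LPS, 23.6 and 14.4 with norepinephrine, and 3.86 and 1.64 with saline. The LPS and norepinephrine libraries were all above the BAFF, saline and APRIL-labelled ones, and the 2 LPS libraries differed 2.58-fold. It averaged 24.8 ± 15.5 TPM with LPS and 2.75 ± 1.57 TPM with saline, a difference of 2.70 ± 0.48 (log2, SE; adjusted p = 0.0245). Without LPS replicate 1, saline replicate 1 or saline replicate 2 the adjusted p lay between 0.0581 and 0.177, and the call was also lost with the 4 compared libraries alone. Tnfsf9, its ligand gene, was at 9.44 and 5.70 TPM with LPS, against 5.33 and 3.73 TPM with saline, a difference that did not pass.

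Tnfrsf14 encodes the herpesvirus entry mediator, the receptor for LIGHT (ENSMUSG00000042333, chr4:154921933-154928563, minus strand). Its level was 8.04 and 6.38 TPM with BAFF, 4.35 and 3.06 in the libraries labelled APRIL, 23.2 and 16.0 with LPS, 11.9 and 8.71 with norepinephrine, and 7.63 and 4.42 with saline. Both LPS libraries were above all others. It averaged 19.6 ± 5.11 TPM with LPS and 6.02 ± 2.27 TPM with saline, a difference of 1.57 ± 0.29 (log2, SE; adjusted p = 0.0271), and the adjusted p lay between 0.0544 and 0.180 without either BAFF library, LPS replicate 1 or saline replicate 2. With the 4 compared libraries alone the call was lost.

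Fas encodes the death-domain receptor of Fas ligand (ENSMUSG00000024778, chr19:34290666-34327772, plus strand). Its level was 12.2 and 10.01 TPM with BAFF, 49.9 and 109 in the libraries labelled APRIL, 32.8 and 36.3 with LPS, 10.7 and 9.53 with norepinephrine, and 10.9 and 9.49 with saline. The LPS libraries were close to each other and above the BAFF, norepinephrine and saline libraries, and the libraries labelled APRIL were higher still. Fas averaged 34.6 ± 2.46 TPM with LPS and 10.2 ± 0.995 TPM with saline, a difference of 1.67 ± 0.31 (log2, SE; adjusted p = 0.0295). In the fit without the libraries labelled APRIL, whose 2 Fas values differed widely, the adjusted p was 0.00203, and in the fit of all groups it lay between 0.0592 and 0.197 without either BAFF, either LPS or either saline library.

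Tnfrsf23 encodes a mouse decoy receptor for TRAIL (ENSMUSG00000037613, chr7:143665809-143685872, minus strand). Its level was 14.6 and 11.7 TPM with BAFF, 14.4 and 11.3 in the libraries labelled APRIL, 21.6 and 20.0 with LPS, 13.0 and 12.8 with norepinephrine, and 13.2 and 11.7 with saline. The LPS libraries were the highest of all 10. The difference was 0.70 ± 0.15 (log2, SE; adjusted p = 0.0499), and leaving out any library other than those labelled APRIL ended the call, with adjusted p between 0.0684 and 0.320, as did pseudocounts of 0.1 and 0.5, a filter of 0.5 TPM and the 4 compared libraries alone. Its neighbour Tnfrsf22, also a TRAIL decoy, shares 25.5% of its 31-base words with Tnfrsf23 and was at 4.80 and 4.56 TPM with LPS, against 4.32 and 4.003 TPM with saline, so reads may have been split between the pair.

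**Figure D3:**
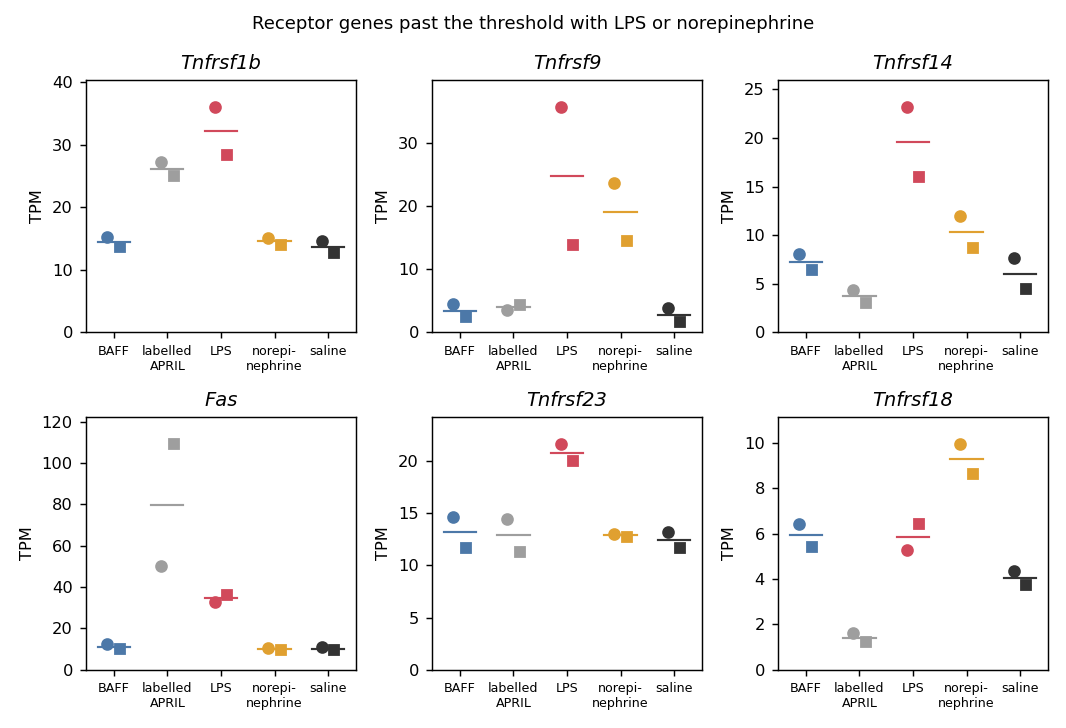
TPM of the 6 receptor genes past an adjusted p of 0.05 with LPS (Tnfrsf1b, Tnfrsf9, Tnfrsf14, Fas, Tnfrsf23) or norepinephrine (Tnfrsf18) in each library, with circles for replicate 1, squares for replicate 2 and a line at each group mean. The LPS points lie above the saline points for all 6 genes, the norepinephrine points of Tnfrsf9, Tnfrsf14 and Tnfrsf18 do so too, and the libraries labelled APRIL are highest for Fas and lowest for Tnfrsf18.

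The promoters of these 5 receptor genes are printed because NF-kB is the textbook link between LPS and genes of this family. Each window runs from 250 bases before to 50 bases after a gene start of RefSeq (GRCm38.p6), 5′ to 3′ on the gene's strand, and capitals mark matches to the NF-kB consensus, searched on both strands.
Tnfrsf9, chr4:150927749-150928048, plus strand: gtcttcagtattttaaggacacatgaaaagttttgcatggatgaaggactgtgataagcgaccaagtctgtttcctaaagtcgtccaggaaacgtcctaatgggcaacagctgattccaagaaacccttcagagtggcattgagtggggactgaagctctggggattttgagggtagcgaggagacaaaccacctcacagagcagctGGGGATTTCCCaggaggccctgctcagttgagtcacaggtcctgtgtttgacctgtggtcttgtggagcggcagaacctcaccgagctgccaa
Tnfrsf1b, chr4:145246821-145247120, minus strand: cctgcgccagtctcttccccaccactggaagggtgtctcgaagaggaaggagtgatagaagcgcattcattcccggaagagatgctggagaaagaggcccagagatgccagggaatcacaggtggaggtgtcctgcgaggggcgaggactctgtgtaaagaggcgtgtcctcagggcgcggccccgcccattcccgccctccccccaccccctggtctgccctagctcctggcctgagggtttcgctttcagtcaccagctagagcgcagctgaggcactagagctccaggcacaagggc
Tnfrsf14, chr4:154928028-154928327, minus strand: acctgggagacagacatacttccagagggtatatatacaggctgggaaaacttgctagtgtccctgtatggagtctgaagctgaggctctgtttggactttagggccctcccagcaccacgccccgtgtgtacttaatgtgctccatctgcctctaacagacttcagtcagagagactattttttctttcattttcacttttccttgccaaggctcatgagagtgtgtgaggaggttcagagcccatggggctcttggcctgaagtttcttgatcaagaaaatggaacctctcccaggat
Fas, chr19:34290409-34290708, plus strand: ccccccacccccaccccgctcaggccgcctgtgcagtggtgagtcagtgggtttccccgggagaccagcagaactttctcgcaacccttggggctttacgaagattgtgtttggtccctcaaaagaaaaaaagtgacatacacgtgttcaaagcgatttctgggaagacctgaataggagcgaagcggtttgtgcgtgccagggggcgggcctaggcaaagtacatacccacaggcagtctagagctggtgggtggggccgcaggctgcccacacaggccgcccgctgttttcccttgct
Tnfrsf23, chr7:143685826-143686125, minus strand: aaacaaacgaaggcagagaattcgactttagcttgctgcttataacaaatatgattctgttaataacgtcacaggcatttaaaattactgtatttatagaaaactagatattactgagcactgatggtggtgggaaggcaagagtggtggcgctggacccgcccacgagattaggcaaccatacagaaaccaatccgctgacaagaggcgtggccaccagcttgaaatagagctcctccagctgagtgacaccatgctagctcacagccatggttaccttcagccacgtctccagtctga
A match was found for 1 of the 5 genes, Tnfrsf9, at a start of RefSeq that lies within the GENCODE gene, where a pair of overlapping matches began at positions -43 and -42. Its other RefSeq start held none. Of the 36 members with a window, 4 held a match (Tnfrsf8, Tnfrsf9, Tnfrsf25 and Ltb), or 11.1%, beside 9.55% of all 27025 genes with a window and 12.5% of the tested genes. Ltb stayed under 1 TPM in all 10 libraries. A match is a description of letters, and the absence of one says only that these letters are not in the window.

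Ngfr had the lowest difference of any member with LPS. It encodes the p75 neurotrophin receptor, a death-domain member, and its level was 5.76 and 6.04 TPM with BAFF, 2.11 and 3.56 in the libraries labelled APRIL, 0.853 and 1.99 with LPS, 1.43 and 2.67 with norepinephrine, and 4.46 and 5.39 with saline. Both LPS and both norepinephrine libraries were below both saline libraries, and both BAFF libraries were above them. The difference was -1.33 ± 0.30 (log2, SE) with LPS, short of the threshold at an adjusted p of 0.0577 and past it at 0.0430 without the libraries labelled APRIL. With norepinephrine it was -0.98 ± 0.30 (adjusted p = 0.167). Among members higher with LPS that missed the threshold, Tnfsf11 had the smallest p, at 18.1 and 19.6 TPM with LPS, against 9.45 and 13.4 TPM with saline, a difference of 0.69 ± 0.17 (adjusted p = 0.0777). Counting only separation, 15 members had both LPS libraries above both saline libraries, where 24.2% of all genes did, and 5 had both below, where 25.5% did.

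Of the marker sums of other cells, that of macrophages overlapped between LPS and saline, at 1575 and 421 TPM in the LPS libraries, against 1302 and 435 TPM in the saline libraries. The macrophage sum was mostly Lyz2. Among its markers only Cd14 separated, at 98.1 and 40.6 TPM with LPS against 25.0 and 12.5 TPM with saline. The rest overlapped, but replicate 1 was far above replicate 2 in both groups, so overlap can hide a shift. Between libraries of the same number, Adgre1 was higher with LPS, at 68.8 against 29.8 TPM and 21.6 against 9.23 TPM. C1qa, C1qb and Csf1r were lower in both, and Cd68, Mrc1 and Lyz2 went both ways. No label pairs these numbers. The neutrophil sum, nearly all S100a8, was 19.9 and 14.0 TPM with LPS, against 1.55 and 0.577 TPM with saline, with S100a9 at 0 TPM throughout. Adipocyte markers summed to 4602 and 5160 TPM with LPS, against 6626 and 7659 TPM with saline. That sum was mostly Fabp4, at 4028 and 4384 TPM against 5452 and 6287 TPM. Adipoq, Plin1, Cidec and Lep were also lower, Lep being under 1 TPM throughout, and Pparg overlapped. The part of these cells in the receptor differences was not tested. In bulk RNA, fewer cells of a type and less RNA per cell cannot be told apart.

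With norepinephrine, the transmitter of sympathetic nerves in fat, 1 member was higher than in saline, where 0.614% of all tested genes were, and 0 were lower, where 0.0847% were. This was Tnfrsf18 (ENSMUSG00000041954, chr4:156026164-156028895, plus strand). Its level was 6.43 and 5.43 TPM with BAFF, 1.64 and 1.202 in the libraries labelled APRIL, 5.27 and 6.41 with LPS, 9.95 and 8.61 with norepinephrine, and 4.35 and 3.75 with saline. The norepinephrine libraries were the highest of all and the libraries labelled APRIL the lowest. It averaged 9.28 ± 0.946 TPM with norepinephrine and 4.05 ± 0.429 TPM with saline, a difference of 1.03 ± 0.16 (log2, SE; adjusted p = 0.0476). The call ended when any library other than those labelled APRIL was left out, with adjusted p between 0.0630 and 0.279. It ended too under pseudocounts of 0.1 and 0.5, the other filters, and omission of mitochondrially encoded genes. Adipocyte markers summed to 12814 and 13309 TPM with norepinephrine, against 6626 and 7659 TPM with saline. That sum was mostly Fabp4, at 11391 and 11802 TPM against 5452 and 6287 TPM. Cidec and Pparg were also higher, Adipoq and Plin1 overlapped, and Lep, under 1 TPM throughout, was lower. Neutrophil markers summed to 4.52 and 5.02 TPM with norepinephrine, against 1.55 and 0.577 TPM with saline. The neutrophil sum was mostly S100a8, at 4.01 and 4.92 TPM against 1.21 and 0.369 TPM. Macrophage sums overlapped, at 1285 and 296 TPM with norepinephrine and 1302 and 435 TPM with saline. Their part in the member differences was not tested. Of the Tnfrsf18 sequence, 21.9% of the 31-base words are shared with the gene model Gm16008.

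Tnfrsf9 had a larger difference with norepinephrine that did not pass. The libraries were at 23.6 and 14.4 TPM with norepinephrine, against 3.86 and 1.64 TPM with saline, a difference of 2.44 ± 0.48 (log2, SE; adjusted p = 0.0671). It passed in the fit without the libraries labelled APRIL (adjusted p = 0.0461), in which 2 of 28 members were higher, where 5.04% of genes were, and 0 were lower, where 1.18% were. Cd27, a co-stimulatory receptor of lymphocytes, was at 2.02 and 1.22 TPM with norepinephrine, against 0.555 and 0.488 TPM with saline. As Cd27 reached 1 TPM with norepinephrine alone, these levels are a description with no test. Tnfrsf12a, the receptor gene of the ligand TWEAK, was at 34.4 and 37.3 TPM with BAFF, 45.4 and 39.3 in the libraries labelled APRIL, 33.0 and 52.9 with LPS, 15.5 and 25.6 with norepinephrine, and 31.9 and 36.0 with saline. Both norepinephrine libraries were below all others, but the difference of -0.73 ± 0.27 did not pass (adjusted p = 0.223). Leaving out Cd27 and the other genes at 1 TPM with norepinephrine only, 3 of 28 members were higher at an unadjusted p under 0.05, where 11% of genes were, and 2 were lower, where 6.42% were. LPS and norepinephrine were each set against the same 2 saline libraries, so their Tnfrsf9 differences share those values.

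In the libraries labelled APRIL, 11 of 29 members were higher than in saline, where 33.1% of all tested genes were, and 3 were lower, where 25% were, in a comparison in which 58.1% of all genes passed. The 11 include Tnfrsf4, which was tested only through these libraries. Without genes of that kind 10 of 28 members were higher, or 35.7%, where 32% of genes were, and 3 were lower, or 10.7%, where 25.4% were. These 2 libraries also stood apart in Y-linked RNA and in correlation with the rest. In every comparison with them, the APRIL treatment and any other difference in their origin therefore cannot be told apart. In these 2 libraries the fibroblast marker sum was 1656 and 2121 TPM, against 4861 to 8378 TPM in the remaining 8. That sum was mostly Col1a1, at 1203 and 1468 TPM against 4271 to 7589 TPM. Pdgfra was also lower, Dcn and Thy1 overlapped the other libraries, and Pdgfrb was higher, at 106 and 150 TPM against 54.1 to 101 TPM. Pi16 and Dpp4 were under 1 TPM in both. The smooth-muscle sum, nearly all Acta2, was 124 and 196 TPM against 462 to 1029 TPM. Endothelial markers summed to 2.85 and 5.85 TPM against 9.63 to 18.2 TPM, with Kdr overlapping. Their part in the member differences was not tested.

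Of the 6 tested death-domain receptors, 3 were higher in the libraries labelled APRIL, where 33.1% of all tested genes were. The other 3 did not pass, and 0 were lower, where 25% of all tested genes were. Those that did not pass were Ngfr at -0.65 ± 0.30 (log2, SE), Tnfrsf1a at 0.21 ± 0.11 and Tnfrsf25 at 0.33 ± 0.34. Fas was at 49.9 and 109 TPM in the libraries labelled APRIL, against 10.9 and 9.49 TPM with saline, a difference of 2.75 ± 0.31 (log2, SE; adjusted p = 0.000215). Tnfrsf10b, the mouse death receptor for TRAIL, was at 8.65 and 8.98 TPM with BAFF, 54.8 and 56.7 in the libraries labelled APRIL, 8.76 and 11.4 with LPS, 9.20 and 11.3 with norepinephrine, and 8.19 and 8.79 with saline. The libraries labelled APRIL stood far above the other 8, whose values ran from 8.19 to 11.4 TPM. The difference was 2.58 ± 0.15 (adjusted p = 1.38e-05). About 11.4% of the 31-base words of Tnfrsf10b also occur in other genes, so its level is less certain. Tnfrsf21, encoding death receptor DR6, was at 1.195 and 0.881 TPM with BAFF, 6.05 and 4.66 in the libraries labelled APRIL, 2.73 and 1.41 with LPS, 1.34 and 0.731 with norepinephrine, and 0.880 and 0.587 with saline. Its difference was 1.87 ± 0.26 (adjusted p = 0.000592).

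The highest difference of any member belonged to Eda2r, the receptor gene for the A2 isoform of ectodysplasin (ENSMUSG00000034457, chrX:97333840-97377216, minus strand). Its level was 4.14 and 4.62 TPM with BAFF, 69.1 and 85.5 in the libraries labelled APRIL, 3.66 and 5.25 with LPS, 3.63 and 4.35 with norepinephrine, and 3.61 and 4.48 with saline. The other 8 libraries all lay between 3.61 and 5.25 TPM, and the difference was 3.95 ± 0.19 (log2, SE; adjusted p = 8.43e-06). Tnfrsf26 and Tnfrsf22 lie beside Tnfrsf23 on chromosome 7. The Tnfrsf26 level was 2.28 and 1.66 TPM with BAFF, 12.1 and 16.5 in the libraries labelled APRIL, 5.16 and 2.45 with LPS, 2.55 and 1.60 with norepinephrine, and 1.96 and 1.49 with saline, and the difference was 2.48 ± 0.30 (adjusted p = 0.00031). Tnfrsf22 was at 3.02 and 3.80 TPM with BAFF, 14.0 and 12.4 in the libraries labelled APRIL, 4.80 and 4.56 with LPS, 3.97 and 3.58 with norepinephrine, and 4.32 and 4.003 with saline, a difference of 1.46 ± 0.14 (adjusted p = 8.74e-05). In both genes the libraries labelled APRIL were the highest of all 10. Of the 31-base words of Tnfrsf22, 38.5% also occur in other genes, Tnfrsf23 among them, so its level is less certain. Tnfrsf23, the third gene of this cluster, was at 14.4 and 11.3 TPM in the libraries labelled APRIL, against 13.2 and 11.7 TPM with saline, with a difference of 0.04 ± 0.15.

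Cd40, encoding the co-stimulatory receptor of B cells and macrophages, was at 1.46 and 0.516 TPM with BAFF, 4.21 and 6.62 in the libraries labelled APRIL, 3.30 and 1.77 with LPS, 1.08 and 0.422 with norepinephrine, and 1.15 and 0.618 with saline. The libraries labelled APRIL were above all others, with a difference of 1.76 ± 0.35 (log2, SE; adjusted p = 0.00354). Tnfrsf1b was at 27.2 and 25.0 TPM in the libraries labelled APRIL, against 14.6 and 12.8 TPM with saline, a difference of 0.88 ± 0.14. For Ltbr the difference was 0.78 ± 0.17. Tnf differed by 0.93 ± 0.33 (adjusted p = 0.0442), a call lost on leaving out either library labelled APRIL, either LPS library, norepinephrine replicate 1 or saline replicate 2 (adjusted p 0.0504 to 0.262). The Tnf call was also lost with pseudocounts of 0.1 and 0.5, with no filter, with median-ratio scaling and with the 4 compared libraries alone. Tnfrsf4 was at 0.908 and 0.994 TPM with BAFF, 1.40 and 1.87 in the libraries labelled APRIL, 0.255 and 0.569 with LPS, 0.745 and 0.776 with norepinephrine, and 0.481 and 0.652 with saline, and as it reached 1 TPM in the libraries labelled APRIL alone, these levels are a description with no test.

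The 3 members lower in the libraries labelled APRIL included both RANKL and its receptor. Tnfrsf11a, encoding RANK, was at 2.81 and 2.66 TPM with BAFF, 0.229 and 0.420 in the libraries labelled APRIL, 1.65 and 0.896 with LPS, 2.19 and 0.797 with norepinephrine, and 3.02 and 1.69 with saline. The libraries labelled APRIL lay below the other 8, and the difference was -1.32 ± 0.32 (log2, SE; adjusted p = 0.00864), lost without saline replicate 1 (adjusted p = 0.0625). Tnfsf11 differed by -0.89 ± 0.17 and Tnfrsf18 by -1.06 ± 0.16. Tnfrsf11b, the gene of osteoprotegerin, the soluble decoy for RANKL, was at 0.75 to 1.98 TPM over the 10 libraries and passed in no comparison.

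**Figure D4:**
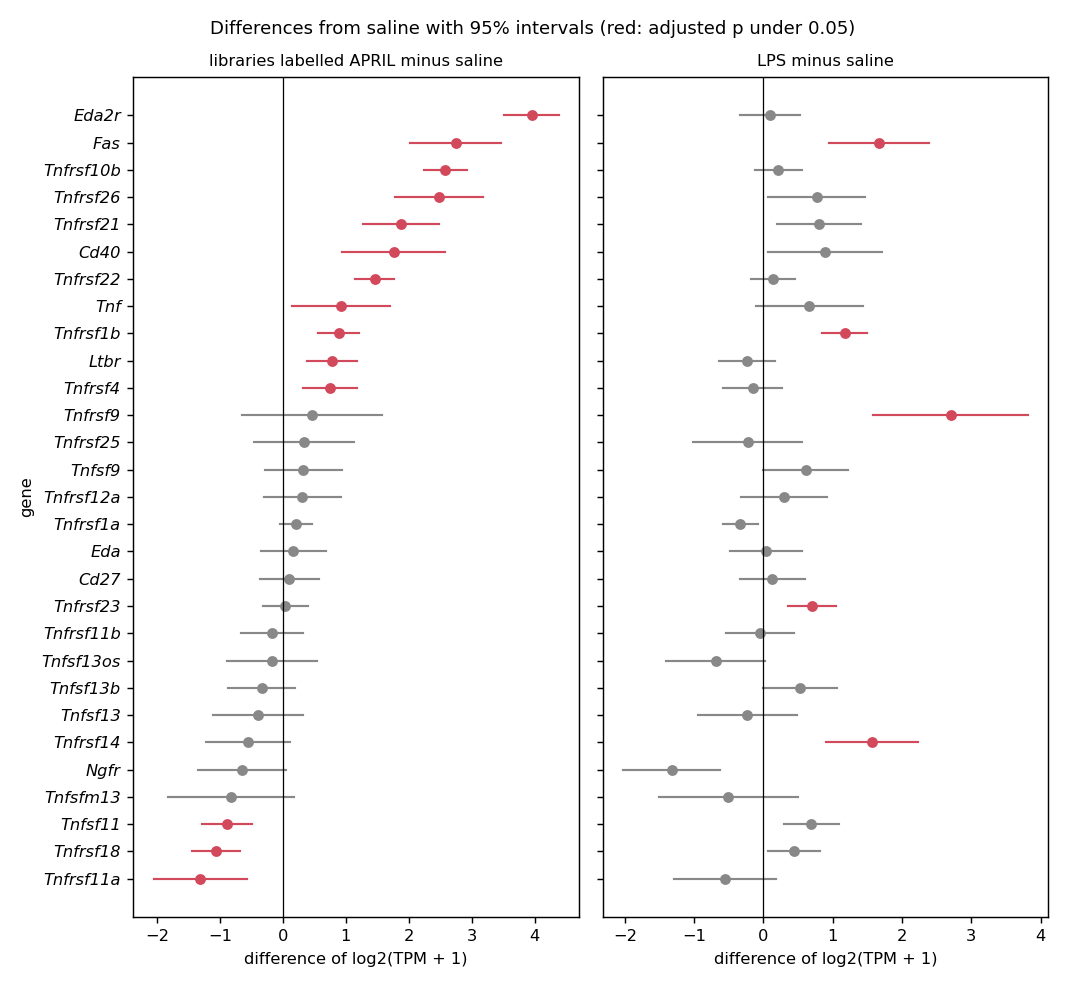
Differences from saline in log2(TPM + 1) with 95% intervals for the 29 tested members, in the libraries labelled APRIL (left) and with LPS (right), red where the adjusted p is under 0.05 (Tnfrsf4 on the left was tested only through those libraries) and genes ordered by the left panel. Eda2r has the highest difference on the left, 3.95, and Tnfrsf9 on the right, 2.70; both panels share the saline libraries.

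Over the 5 groups together, limma's moderated F test passed for 19 of 29 members, where 60.4% of all tested genes passed. Without genes at 1 TPM in 1 group only, such as Tnfrsf4, it was 18 of 27, where 59.9% passed. Without the libraries labelled APRIL it passed for 7 of 28 members, where 12.8% of genes passed. These 7 were Fas, Tnfrsf1b, Tnfrsf18, Tnfrsf9, Tnfrsf23, Ngfr and Tnfrsf14, with adjusted p between 0.0028 and 0.0438. Ngfr (adjusted p = 0.0109), Tnfrsf1a (adjusted p = 0.0275) and Tnfrsf12a (adjusted p = 0.0437) passed over the 5 groups and in no comparison with saline in that fit. Of these, Tnfrsf1a and Tnfrsf12a did not pass without the libraries labelled APRIL (adjusted p = 0.0605 and 0.137). In the F test over the 5 groups, leaving out 1 library raised the adjusted p to as much as 0.136 for Tnfrsf1a (lost without BAFF replicate 2, either LPS library, either norepinephrine library or saline replicate 1), 0.216 for Tnfrsf12a (either BAFF library, either library labelled APRIL, norepinephrine replicate 1 or either saline library), 0.101 for Tnfrsf11a (either BAFF library or either library labelled APRIL) and 0.122 for Tnfrsf23 (either LPS library). Tnfrsf25, encoding death receptor DR3, was at 0.33 to 2.04 TPM and passed in no comparison.

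Downstream genes were counted over a list of 48, all of which were tested. It held adaptors, kinases, cell-death genes, NF-kB subunits, their inhibitors and sheddases, and also genes named for induction by TNF (Tnfaip2, Tnfaip3, Tnfaip6 and Tnfaip8). As the list was chosen with earlier results of these data known, its shares beside all genes are a description. With BAFF 0 were called, and 0 also at an unadjusted p under 0.05. With LPS 12 of 48 were higher, where 2.87% of all tested genes were, and 0 lower, where 0.932% were. With norepinephrine 0 were called, and 7 had an unadjusted p under 0.05, where 11.2% of all genes were higher and 6.4% lower at that level. In the libraries labelled APRIL 30 were higher and 4 lower, where 33.1% and 25% of all genes were. The median difference over the list was 0.12 with BAFF, beside 0.11 over all genes, and 1.04 in the libraries labelled APRIL, beside 0.08. It was 0.34 with LPS, beside -0.01, and -0.03 with norepinephrine, beside 0.04.

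NF-kB inhibitors and feedback regulators were among the 12 that rose with LPS. Nfkbia, encoding the inhibitor IkBa, averaged 151 ± 37.3 TPM with LPS and 25.3 ± 7.22 TPM with saline (SD, n = 2 each), a difference of 2.53 ± 0.38 (log2, SE; adjusted p = 0.0124). Tnfaip3, encoding the ubiquitin-editing inhibitor A20, averaged 29.3 ± 5.65 TPM with LPS and 4.78 ± 0.908 TPM with saline (adjusted p = 0.0139). Its partner Tnip1 averaged 107 ± 18.8 TPM with LPS and 22.5 ± 1.26 TPM with saline (adjusted p = 0.00113). Nfkbiz, an atypical nuclear IkB protein, had the smallest p, with a difference of 1.67 ± 0.11 (adjusted p = 0.000507). Relb and Nfkb2, the non-canonical NF-kB subunits downstream of receptors such as Ltbr, differed by 1.27 ± 0.13 and 1.24 ± 0.16, Tnfaip6, a secreted hyaluronan-binding protein, by 1.31 ± 0.14, and Mlkl, the executor of necroptosis, by 1.09 ± 0.15. Nfkbiz, Tnip1, Relb and Tnfaip6 stayed past 0.05 under every single-library omission, and the other 8 did not, with highest adjusted p between 0.0716 and 0.267. Leaving out LPS replicate 1 or saline replicate 2 turned the count of 12 into 4, leaving out saline replicate 1 turned it into 6, and it was 19 when either library labelled APRIL was dropped. The 4 list members of smallest p in the libraries labelled APRIL were Traf4, a TRAF adaptor, at 3.68, Ripk1, the kinase recruited by TNFR1, at 1.76, Nfkbib at 2.28 and Relb at 2.08, each as a log2 difference.

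The 2 libraries of a group also differed from each other in a repeated way. Macrophage markers summed 2.21 times as high in replicate 1 as in replicate 2 with BAFF, 3.74 times with LPS, 4.34 times with norepinephrine and 2.99 times with saline. Of the 29 tested members, 12 were higher in replicate 1 in all 4 of these groups, where 14.3% of all tested genes were, and 6 were lower in all 4, where 15.8% were. The 12 were Tnfsfm13, Tnfrsf11a, Tnfsf9, Tnfrsf21, Tnfsf13, Tnf, Tnfrsf1b, Cd40, Tnfrsf14, Tnfrsf23, Tnfrsf26 and Tnfrsf9. Cd40 was 1.85 to 2.82 times as high in replicate 1 and Tnfrsf9 1.64 to 2.58 times, whereas Fas was on both sides of 1. The ratios were slight for Tnfrsf1b, at 1.08 to 1.27, and for Tnfrsf23, at 1.02 to 1.25. Skeletal-muscle markers ran the other way, at 11.9 to 20.9 TPM in replicate 1 and 80.1 to 137 TPM in replicate 2 of the same 4 groups. The part of these cells in the spread of the members was not tested.

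**Figure D5:**
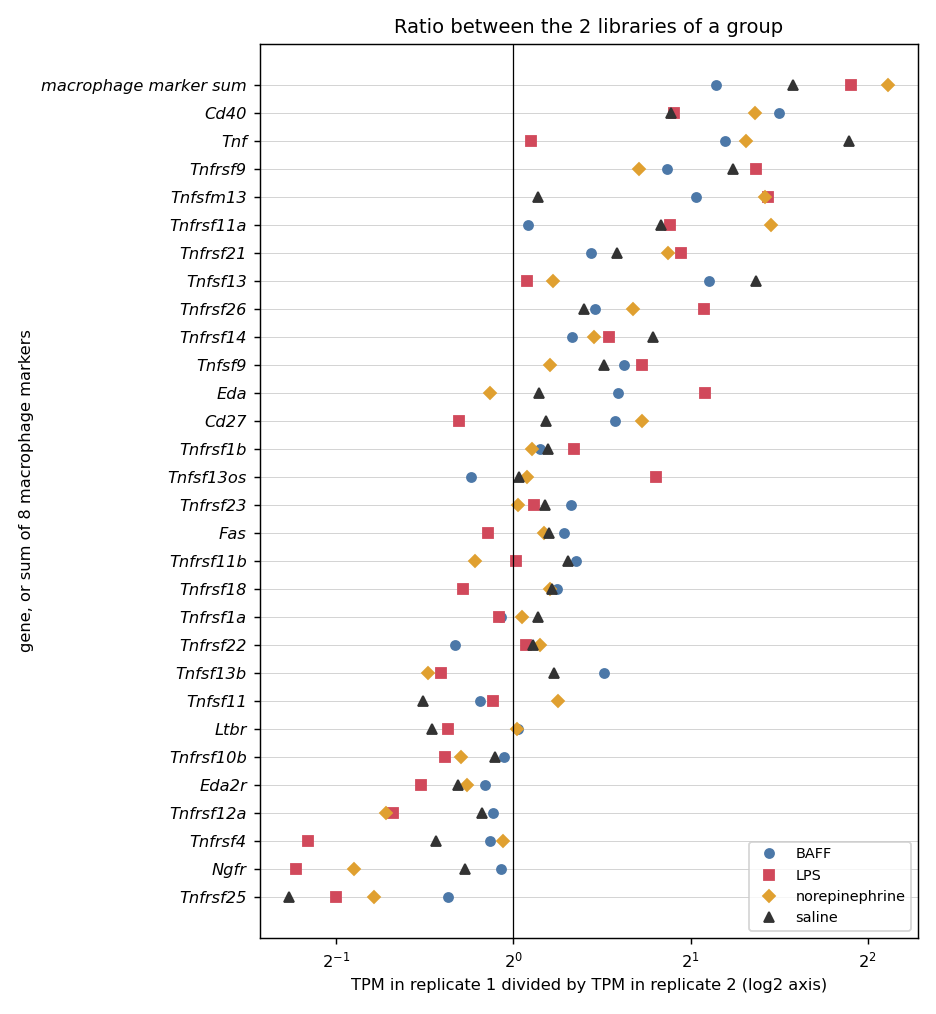
TPM in replicate 1 divided by TPM in replicate 2 on a log2 axis, for each of the 29 tested members and for the sum of 8 macrophage markers, in the BAFF, LPS, norepinephrine and saline groups. The macrophage sum lies between 2.21 and 4.34 and Cd40, Tnf and Tnfrsf9 lie right of 1 in all 4 groups, whereas Tnfrsf25, Ngfr and Tnfrsf4 lie left of it.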

How the data were processed

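The authors quantified transcripts with kallisto against mm10, per the submitters' processing notes, and deposited 1 TPM value per gene and library, per the file headers. The kallisto version, annotation release and gene summing are not given in the sources used here. TPM keep no depth, so no count test or counting interval was possible, and the spread between libraries is the only error. Symbols and positions came from GENCODE M21, which matched 27458 of the 28987 IDs.

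The test was that of limma 3.58.1 (R 4.3.3, mean-variance trend) on log2(TPM + 1), for the 14166 genes that reached 1 TPM in 2 or more libraries. It fitted 5 group means to 10 libraries, which leaves 5 residual degrees of freedom, and p-values were adjusted by Benjamini-Hochberg over all tested genes within each comparison, with a threshold of 0.05. Each treatment was compared with saline, and an F test covered the 5 groups. Differences are treated minus saline and understate changes of low genes. The plan put a count test first and this fit as the fallback for TPM. Scripts were tested on simulated data. Every adjusted p is from limma.

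Named with full values were members past 0.05 in any test, the genes of BAFF, APRIL and their receptors, and the 10 members highest in saline. Of the signalling list, up to 8 genes were named with LPS and up to 4 elsewhere. The members and lists were chosen with earlier results of these data known. Shared 31-base words were counted in GENCODE M21 transcripts, promoters came from RefSeq, and figures were drawn with matplotlib 3.10.9. Alternatives were pseudocounts of 0.1 and 0.5, filters of 0.5 TPM and none, omission of mitochondrially encoded genes, median-ratio scaling, the 4 compared libraries alone, the libraries labelled APRIL left out, a replicate block, and each library left out.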

Additional observations from a re-analysis of the deposited data

How the results depend on the processing

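The BAFF count of 0 members, the count of members at 1 TPM or more and the count in the libraries labelled APRIL stayed within 1.5 times under each alternative run. With LPS, 5 members became 1 with no filter, 2 with the 4 compared libraries alone, and 12 with the replicate block and the libraries labelled APRIL left out. With norepinephrine, 1 member became 0 with a pseudocount of 0.1 or 0.5, a filter of 0.5 TPM, no filter, or mitochondrially encoded genes left out, 2 without the libraries labelled APRIL, 2 with the replicate block, and 5 with the block and without those libraries. The F test gave 7 members without the libraries labelled APRIL and 11 with the block as well, beside 19. The LPS signalling count of 12 became 19 without the libraries labelled APRIL and 22 with the block as well, and the norepinephrine count of 0 became 1 and 6. Leaving out 1 library gave 0 to 6 members with LPS, 0 to 2 with norepinephrine, 4 to 19 signalling genes with LPS and 0 to 1 with norepinephrine. Dropping samples leaves fewer degrees of freedom, and otherwise the cause was not tested.

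Reversals of sign touched values that passed no test. The Tnfsf13 difference with BAFF was -0.00409 under median-ratio scaling. Leaving out 1 library gave a range of -0.25 to 0.36 for Tnfsf13 and -0.0911 to 0.30 for Tnfsf13b with BAFF, -0.53 to 0.0707 for Tnfsf13 with LPS, and -0.12 to 0.48 for Tnfsf13 and -0.32 to 0.0209 for Tnfsf13b with norepinephrine.

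Replicate numbers are shared by the groups but no label says that they pair the libraries. Deviations of same-numbered libraries correlated at 0.272 to 0.479 over the 6 pairs of groups without APRIL and at -0.108 to 0.026 over the 4 pairs with it. The replicate block gave 0 members with BAFF, 7 with LPS, 2 with norepinephrine, 16 in the libraries labelled APRIL and 21 in the F test. With it Tnfrsf9 passed with norepinephrine (adjusted p = 0.032), and Ngfr (0.0124) and Tnfrsf21 (0.0399) passed with LPS. The fit with the block and without the libraries labelled APRIL was chosen after seeing the data. With unknown depth and 2 libraries a group, members under 1 TPM could not be tested.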
